A study of Rattus norvegicus with 17 samples.

Results

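Pparg and the genes of the lipid droplet coat and of fatty acid carriage were followed through the rat meibomian gland (MG) after 5 days of UVB exposure. The members were Pparg, Plin1, Plin2, Plin3, Plin4, Plin5, Cidea, Cidec, Fabp4 and Fabp5, each taken when its symbol stood in the deposited expression table. Of these 10 genes, 9 were found among the 17251 genes listed, and Plin3 was not listed under its symbol. All 9 passed the filter on low values and were among the 13105 genes tested, Plin1 and Cidec only through control rats.

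Total RNA from dissected MG of 17 female rats, 10 to 12 weeks old, was sequenced. There were 4 wild-type rats without UVB (Control WT), 5 transgenic P1.hMR rats without UVB (Control P1.hMR), 3 wild-type rats with UVB on the eyelids (UVB WT) and 5 P1.hMR rats with UVB on the eyelids (UVB P1.hMR). P1.hMR rats carry the human mineralocorticoid receptor gene NR3C2 behind its proximal P1 promoter, which is active in every tissue that expresses the receptor and so is not specific to the MG. Each column of the table is 1 rat, and the eyelids of a rat are not separate samples. The table lists the transgene as NR3C2, with 0 TPM in each of the 7 WT rats and 5.31 to 9.31 TPM over the 10 P1.hMR rats. Expression was deposited as TPM, a transcript's share of its library after scaling by transcript length, so levels can be compared between genes, while the sequencing depth behind them is unknown. Between 12372 and 12737 genes reached 1 TPM in a rat. All 12 marker genes of meibocytes, the lipid-filled cells of the gland, passed the filter, and their sum lay between 40297 and 55243 TPM over the 17 rats.

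The MG is a holocrine gland: meibocytes fill with lipid droplets and burst to release meibum, the oil of the tear film. PPARG is a nuclear receptor that binds DNA as a heterodimer with a retinoid X receptor and drives lipid genes in adipocytes and in sebaceous cells. Perilipins (Plin genes) coat the droplet surface and control access of lipases, CIDE proteins (Cidea, Cidec) make droplets fuse and grow, and fatty acid binding proteins (Fabp genes) carry fatty acids through the cytosol.

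The DNA just before the start of the genes that the comparisons below turn on is shown first, since PPARG acts on such DNA at pairs of the hexamer AGGTCA. RefSeq windows of 250 bases before a start on the GRCr8 assembly were found for 8 of the 10 members, 14 windows in all, and Fabp4 and Fabp5 had no entry. Both Pparg starts are printed because the deposited value does not separate them, Plin2 as the perilipin with the most RNA, and Plin4 and Plin5 because they lie next to each other with no protein-coding gene between them, and their averaged UVB responses had opposite signs. Capitals mark the hexamer AGGTCA, the GC box GGGCGG and the CCAAT box CCAAT, each on either strand, and each sequence reads 5′ to 3′ towards its gene.
Pparg, first start, chr4:150096808-150097057, plus strand: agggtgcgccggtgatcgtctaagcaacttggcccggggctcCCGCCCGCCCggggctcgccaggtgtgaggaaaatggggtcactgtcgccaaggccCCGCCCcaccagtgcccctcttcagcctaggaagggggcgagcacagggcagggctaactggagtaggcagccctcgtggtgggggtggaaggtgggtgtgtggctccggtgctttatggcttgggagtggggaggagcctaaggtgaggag
Pparg, second start, chr4:150154522-150154771, plus strand: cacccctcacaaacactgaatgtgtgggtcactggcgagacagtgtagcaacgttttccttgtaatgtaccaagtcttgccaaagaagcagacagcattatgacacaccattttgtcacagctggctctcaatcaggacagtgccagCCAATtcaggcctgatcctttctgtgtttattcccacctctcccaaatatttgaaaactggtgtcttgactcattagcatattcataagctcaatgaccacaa
Plin2, chr5:106229019-106229268, minus strand: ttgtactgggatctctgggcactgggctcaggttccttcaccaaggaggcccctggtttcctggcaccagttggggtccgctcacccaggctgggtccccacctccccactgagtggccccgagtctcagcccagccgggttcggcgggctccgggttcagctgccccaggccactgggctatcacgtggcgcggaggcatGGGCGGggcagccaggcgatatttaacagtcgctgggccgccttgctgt
Plin4, chr9:1025250-1025499, minus strand: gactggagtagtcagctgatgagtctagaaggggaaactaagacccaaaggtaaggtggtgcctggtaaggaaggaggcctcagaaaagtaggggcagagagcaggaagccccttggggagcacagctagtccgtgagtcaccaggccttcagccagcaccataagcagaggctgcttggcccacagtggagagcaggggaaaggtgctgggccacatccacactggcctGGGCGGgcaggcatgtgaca
Plin5, chr9:1033285-1033534, minus strand: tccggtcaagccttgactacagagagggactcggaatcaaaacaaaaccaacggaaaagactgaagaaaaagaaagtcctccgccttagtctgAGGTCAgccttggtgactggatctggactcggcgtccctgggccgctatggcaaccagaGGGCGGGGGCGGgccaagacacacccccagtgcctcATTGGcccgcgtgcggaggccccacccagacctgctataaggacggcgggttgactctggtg
Among the 14 member windows, the hexamer was found in that of Plin5 only, beginning 157 bases before the start, and 14.1% of all 33469 windows hold it. The full direct repeat of PPARG sites, which is 2 such hexamers in the same orientation with 1 base between and so holds the hexamer by construction, was in 0.0508% of all windows and in none of the members' windows. At that share a hit among 14 windows, several of which overlap at Plin4, was unlikely beforehand. Only the exact letters within 250 bases were searched, so their absence does not show that the members lack PPARG sites. The GC box, found in 30.5% of all windows, stood in the first Pparg window at 3 places, a pair of which overlap, in the printed windows of Plin2, Plin4 and Plin5, and, among those not printed, in windows of Plin3, Plin4 and Cidea. The CCAAT box, in 34.0% of all windows, stood in the second Pparg window, in that of Plin5 and, among the windows not printed, in those of Plin1 and Plin3. TATAAA, in 12.9% of all windows, was also searched and was in no member window. GC content was 67.2% in the first Pparg window and 44.8% in the second.

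In the 9 control rats the members fell into levels far apart. Fabp5, the epidermal fatty acid binding protein, was the 17th most abundant of the 17251 genes with 2856 ± 408 TPM (SD, n = 9), followed by Cidea, which ranked 23rd with 2299 ± 152 TPM. Plin2, the perilipin found in most lipid-storing cells, ranked 64th with 1546 ± 85.0 TPM. The ranges of Fabp5 and Cidea overlapped, whereas every control rat had less Plin2 than any had Cidea.

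Pparg itself had 100.4 ± 6.77 TPM and ranked 1380th. Fabp4, the fatty acid binding protein of adipocytes, capillaries and macrophages, had 35.2 ± 5.83 TPM, and Plin4, a perilipin of adipocytes and muscle that coats new droplets, had 30.6 ± 4.08 TPM, with overlapping ranges. The lowest were Plin5, the perilipin of oxidative tissues, with 3.74 ± 1.45 TPM, Cidec, a fat-storage CIDE protein, with 2.12 ± 1.30 TPM, and Plin1, the perilipin of adipocytes, with 1.65 ± 1.03 TPM, and these 3 ranges overlapped. Among the listed perilipins, Plin2 made up 97.7% ± 0.177 (SD, n = 4) of the TPM in Control WT and 97.8% ± 0.195 (SD, n = 5) in Control P1.hMR rats.

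**Figure D1:**
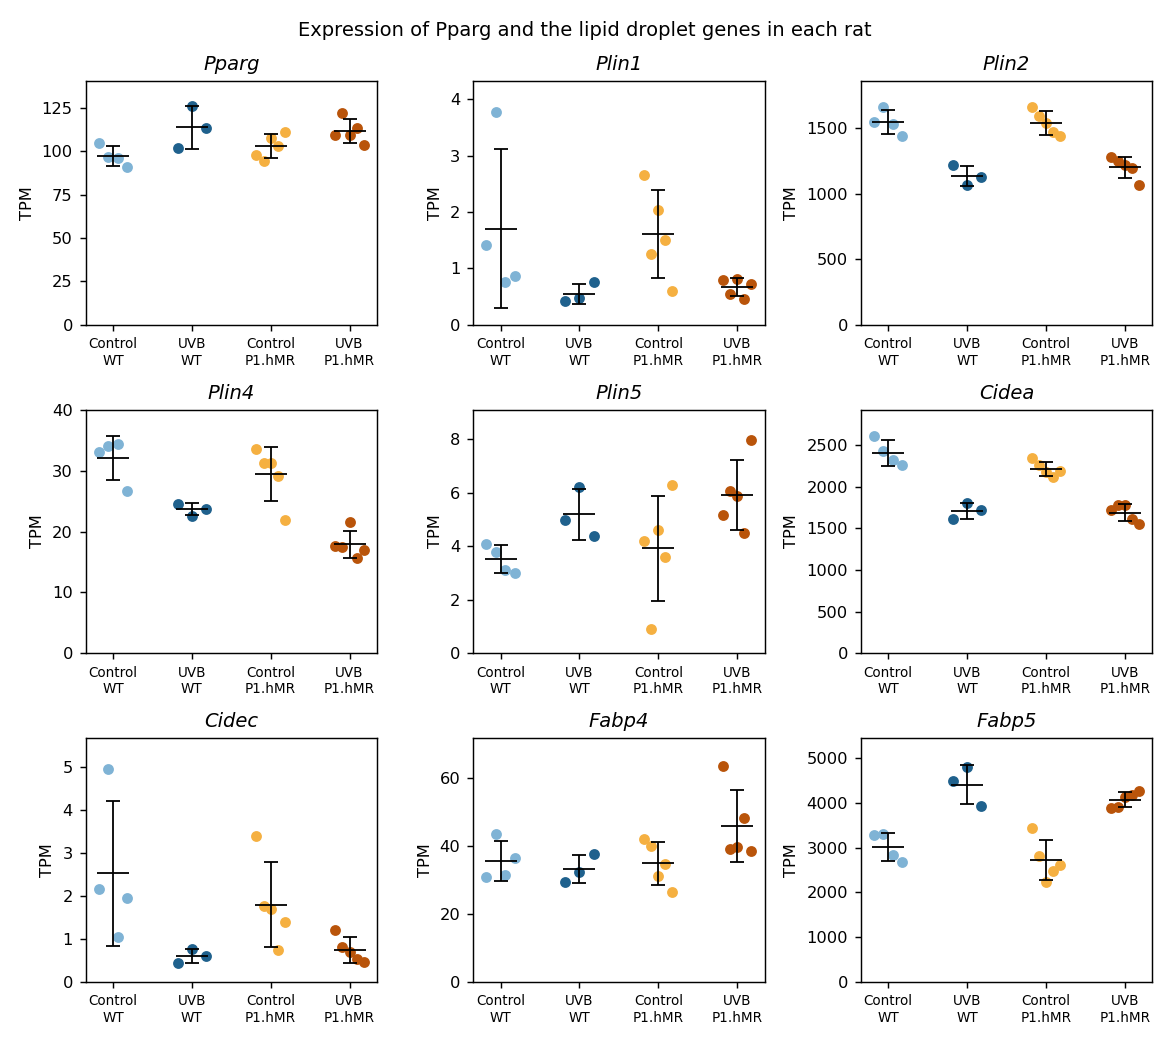
TPM (vertical axis, from 0) of the 9 listed members in each of the 17 rats, by group; points are rats, the horizontal mark is the group mean and the bar its SD. All 8 UVB rats lie below all 9 controls for Plin2 and Cidea and above them for Fabp5, while Pparg stays between 90.8 and 126 TPM throughout.

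UVB exposure was compared with no UVB within each genotype and averaged over both, with limma on log2(TPM + 1) and Benjamini-Hochberg adjustment over the 13105 genes. Rose and fell are used for an adjusted p under 0.05, and a DEG also needed a log2 fold change of 0.5 or more in either direction. After UVB, 2 of 9 members were DEGs in WT rats (7.91% of all genes tested), 2 of 9 in P1.hMR rats (10.8% of all genes) and 5 of 9 averaged over genotypes (9.48% of all genes). These counts include Cidec in WT rats and Plin1 and Cidec averaged, which passed the filter only through control rats. With the adjusted p alone, 6 of 9 members changed in WT rats (21.5% of all genes), 4 of 9 in P1.hMR rats (39.1%) and 8 of 9 averaged over genotypes (47.2%). The median log2 fold change of the members was -0.42 in WT, -0.36 in P1.hMR rats and -0.40 averaged, where the medians of all genes tested were 0.01, -0.02 and -0.01. By that measure 4 members fell and 2 rose in WT rats (Pparg and Fabp5), 3 fell and 1 rose in P1.hMR rats (Fabp5), and averaged over genotypes 5 fell and 3 rose (Pparg, Plin5 and Fabp5). Without Control WT rat 2, 3 members passed the adjusted p in WT rats (Cidea, Fabp5 and Plin2) and 7 in P1.hMR rats, and without UVB WT rat 3 the same 3 genes passed in WT rats. With 1 rat left out at a time, the DEGs numbered 1 to 3 in WT rats, 2 to 4 in P1.hMR rats and 3 to 5 averaged. In WT rats Fabp5 was the 1 DEG without Control WT rat 2, UVB WT rat 1 or UVB WT rat 3, in P1.hMR rats there were 4 DEGs without Control WT rat 2 or Control P1.hMR rat 5, and averaged there were 3 without Control WT rat 2.

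**Figure D2:**
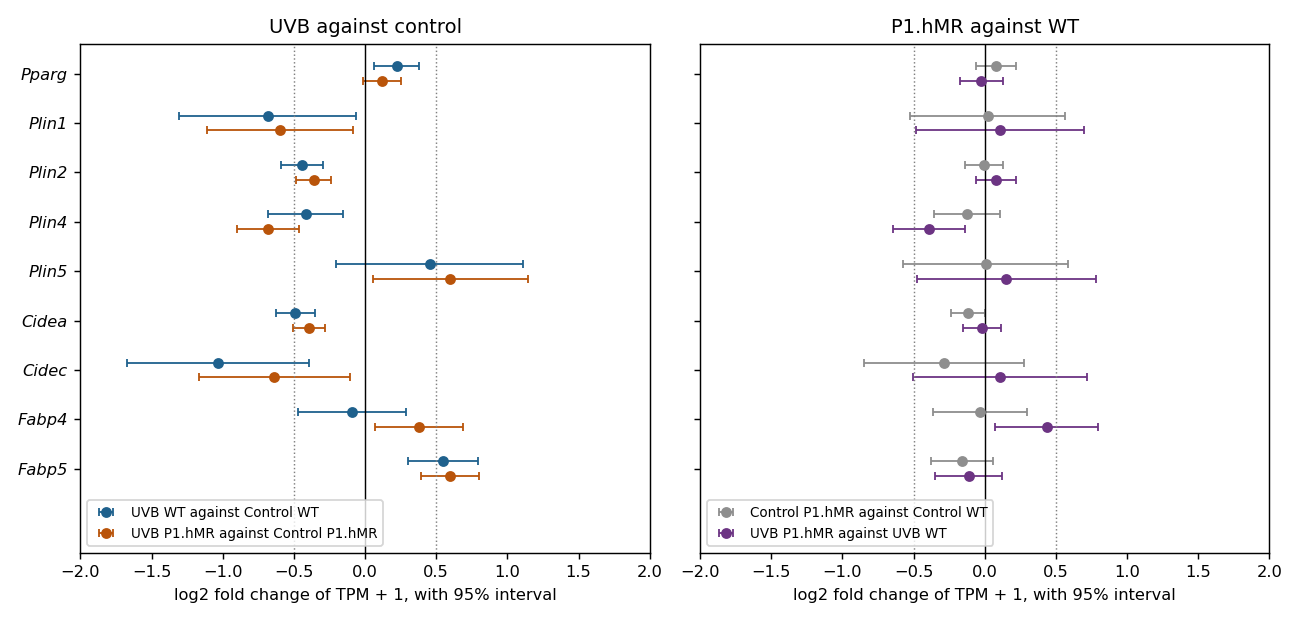
Log2 fold change of TPM + 1 (horizontal axis) with its 95% interval from limma for each listed member; left, UVB against control in WT and in P1.hMR rats; right, P1.hMR against WT rats without and with UVB. Dotted lines mark 0.5 in either direction. After UVB in both genotypes the intervals of Plin1, Plin2, Plin4, Cidea and Cidec lie left of 0 and that of Fabp5 right of 0. The genotype intervals include 0 for all members but Plin4 and Fabp4 under UVB. Intervals are not adjusted for the number of genes, and Plin1 did not pass the adjusted p in either genotype.

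Pparg, the receptor of the group, had 105, 97.0, 96.1 and 90.8 TPM in Control WT against 102, 126 and 114 TPM in UVB WT rats. Among P1.hMR rats it had 98.0, 94.3, 108, 103 and 111 TPM without UVB against 109.5, 122, 109.6, 113 and 104 TPM with UVB. The UVB and control ranges overlapped in both genotypes. Pparg was higher by 0.22 on the log2 scale in UVB WT rats (SE 0.075, limma adjusted p = 0.0447), a rise that stayed under an adjusted p of 0.05 in 10 of 27 fits, the reported one included, with adjusted p between 0.0161 and 0.22. Among those without it were the fits that left out Control WT rats 2, 3 or 4 or UVB WT rats 2 or 3, with an adjusted p of 0.22 without UVB WT rat 2. In P1.hMR rats the difference was 0.12 (SE 0.062, adjusted p = 0.147). Averaged over genotypes Pparg rose by 0.17 (SE 0.049, adjusted p = 0.00925), and this passed in all 26 fits.

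Plin2 had 1552, 1666, 1535 and 1443 TPM in Control WT rats against 1222, 1069 and 1126 TPM in UVB WT rats. In P1.hMR rats it had 1666, 1595, 1541, 1475 and 1443 TPM without UVB against 1279, 1249, 1219, 1200.5 and 1068 TPM with UVB. Every UVB rat lay below every control rat. Plin2 fell by 0.44 on the log2 scale in WT rats (SE 0.071, adjusted p = 0.000599) and by 0.36 in P1.hMR rats (SE 0.058, adjusted p = 0.000181), both under the fold change needed for a DEG. For WT rats the mean level was 1549 ± 91.7 TPM (SD, n = 4) without UVB and 1139 ± 77.2 TPM (SD, n = 3) with it. UVB and control groups that did not overlap were seen for 6 of 9 members in WT rats (26.6% of all genes), 4 of 9 in P1.hMR rats (27.2%) and 3 of 9 over all rats (10.8%), the last being Plin2, Cidea and Fabp5.

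Cidea, which promotes droplet fusion and enlargement in brown fat and sebaceous cells, had 2613, 2429.9, 2319 and 2258 TPM in Control WT rats against 1613, 1801 and 1715 TPM in UVB WT rats. In P1.hMR rats it had 2339, 2255, 2178, 2113 and 2182 TPM without UVB against 1716, 1777, 1784, 1607 and 1552 TPM with UVB. Again no UVB rat reached the lowest control rat. Cidea fell by 0.49 in WT rats (SE 0.065, adjusted p = 0.000161) and by 0.39 in P1.hMR rats (SE 0.054, adjusted p = 4.23e-05). It stayed just under the DEG threshold in WT rats, and without Control WT rat 3 or 4 or UVB WT rat 2 it passed, at a log2 fold change down to -0.53.

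The ratio of Cidea to Plin2 moved by less than its spread in either genotype. Cidea per Plin2 was 1.55 ± 0.0962 in Control WT and 1.51 ± 0.182 in UVB WT rats, and 1.44 ± 0.0446 and 1.40 ± 0.0602 in the P1.hMR groups. Beside both genes, the 12 meibocyte markers were called in both directions. In WT rats 2 of 12 were higher and 1 was lower as DEGs, and in P1.hMR rats 1 was higher and 2 were lower. One of the higher calls in WT rats was Mc5r, a melanocortin receptor of sebaceous cells (0.85, adjusted p = 0.0485), which passed the adjusted p in 8 of 27 fits (adjusted p from 0.0283 to 0.221) and was lost without Control WT rat 1 or 2, UVB WT rat 2 or 3, Control P1.hMR rat 2, 3, 4 or 5 or any 1 of the UVB P1.hMR rats. Awat2, a wax ester synthase of meibum, fell by 0.65 in WT and by 0.52 in P1.hMR rats (adjusted p = 0.000115 and 2.54e-05), while Elovl3, a fatty acid elongase, rose by 0.55 and 0.77 (adjusted p = 0.0077 and 5.48e-05). With quantile normalization Awat2 was under the fold threshold in both genotypes (-0.40 for WT and -0.36 for P1.hMR), and so it was in P1.hMR rats without UVB P1.hMR rat 5 (-0.48). Dgat2, which makes triglyceride and was the other lower marker in P1.hMR rats (-0.52, adjusted p = 0.000206), was under it without UVB P1.hMR rat 1 (-0.48), and Elovl3 in WT rats without Control WT rat 3 or 4 or UVB WT rat 2 or 3 (0.46 at the lowest). The summed meibocyte markers ranged from 45497 to 55243 TPM in Control WT, 42536 to 49189.7 TPM in UVB WT, 44767 to 50370 TPM in Control P1.hMR and 40297 to 47748 TPM in UVB P1.hMR rats, and none was at 0. Most of that sum was Scd, with group means of 25786 to 27692 TPM, and Awat2, with 7280 to 11610 TPM. Scd did not pass the adjusted p in WT (-0.04, adjusted p = 0.825) or P1.hMR rats (-0.09, adjusted p = 0.41). In whole tissue, fewer cells of a type and less RNA per cell cannot be told apart.

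Plin4 had 33.1, 34.0, 34.4 and 26.7 TPM in Control WT rats against 24.6, 22.7 and 23.8 TPM in UVB WT rats. In P1.hMR rats it had 33.5, 31.25, 31.27, 29.2 and 22.0 TPM without UVB against 17.7, 17.5, 21.6, 15.7 and 16.97 TPM with UVB. The groups did not overlap within either genotype. Plin4 was a DEG in P1.hMR rats, where it fell by 0.68 (SE 0.10, adjusted p = 0.000103) with an adjusted p under 0.05 in all 27 fits. In WT rats it fell by 0.42 (SE 0.12, adjusted p = 0.0258), and this was lost without Control WT rat 2 (adjusted p = 0.063), Control WT rat 3 (0.0659), UVB WT rat 2 (0.083) or UVB WT rat 3 (0.0598), in a range of 0.0041 to 0.083 over all fits. Skeletal muscle, which expresses Plin4, lies in the eyelid beside the gland. Of 8 listed skeletal muscle genes 1 was lower as a DEG in WT rats (Actn3) and 2 in P1.hMR rats (Actn3 and Mb, the oxygen store of muscle), the Mb call being lost without any of Control P1.hMR rats 1, 2 and 4 and UVB P1.hMR rats 1, 4 and 5 (adjusted p up to 0.108). Ckm, another listed muscle gene, was a DEG only averaged over genotypes (-0.60, adjusted p = 0.00934), and fell under the fold threshold without UVB WT rat 3 (-0.44). The summed muscle genes ranged over 2344 to 3369.5 TPM in Control WT, 1609 to 2912 TPM in UVB WT, 2064 to 3633 TPM in Control P1.hMR and 1745 to 3247 TPM in UVB P1.hMR rats, with none at 0. Their part in the Plin4 result was not tested.

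Plin5, whose gene neighbours Plin4, went the other way. It had 4.10, 3.80, 3.13 and 3.02 TPM in Control WT rats and 4.99, 6.22 and 4.37 TPM in UVB WT rats, which did not overlap. It had 4.19, 0.89, 4.63, 3.62 and 6.30 TPM in Control P1.hMR and 5.19, 6.06, 5.88, 4.51 and 7.97 TPM in UVB P1.hMR rats, which did. Neither genotype alone passed the adjusted p (0.45, SE 0.31, adjusted p = 0.319 in WT; 0.60, SE 0.26, adjusted p = 0.0765 in P1.hMR). Averaged over genotypes Plin5 was a DEG (0.53, SE 0.20, adjusted p = 0.0419), but the adjusted p ran from 0.015 to 0.101 over 25 fits and was under 0.05 in 13. Control P1.hMR rat 2, at 0.89 TPM, was the lowest of all rats, and without it the log2 fold change was 0.37 (adjusted p = 0.015). The adjusted p was over 0.05 without Control WT rat 2, 3 or 4, Control P1.hMR rat 4, UVB WT rat 1 or 2, or UVB P1.hMR rat 2, 3 or 5, and was highest without UVB WT rat 2 (0.47, adjusted p = 0.101). For P1.hMR rats alone Plin5 became a DEG without Control P1.hMR rat 5 (0.77, adjusted p = 0.0251).

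Plin1 and Cidec, the droplet proteins of white adipocytes, were the members with the least RNA and spread widely between rats. Both passed the filter of 1 TPM in 3 or more rats only through control rats. No UVB rat reached 1 TPM of Plin1, and only UVB P1.hMR rat 1 did so for Cidec. A gene admitted this way is high in control rats by selection, so its fall is not independent of the filter. Cidec had 2.15, 4.95, 1.04 and 1.95 TPM in Control WT rats against 0.43, 0.77 and 0.60 TPM in UVB WT rats, with no overlap. In P1.hMR rats it had 3.40, 1.76, 1.69, 0.74 and 1.39 TPM without UVB against 1.2, 0.80, 0.70, 0.52 and 0.45 TPM with UVB, with overlap. Cidec was a DEG in WT rats (-1.03, SE 0.30, adjusted p = 0.0233), though not without Control WT rat 2 (-0.74, adjusted p = 0.0624), UVB WT rat 1 (-0.95, adjusted p = 0.0728) or UVB WT rat 3 (-1.03, adjusted p = 0.0559), in a range of 0.01 to 0.0728 over all fits. In P1.hMR rats the difference was -0.64 (SE 0.25, adjusted p = 0.0532), and it became a DEG there without Control WT rat 2 or 3, Control P1.hMR rat 4 or UVB P1.hMR rat 1 (adjusted p of 0.0437 or less). Averaged over genotypes Cidec fell by 0.84 (SE 0.20, adjusted p = 0.00241). The log2(TPM + 1) scale understates such low genes. The mean TPM with UVB was 0.238 times that without it in WT rats and 0.409 times in P1.hMR rats. Control WT rat 2, at 4.95 TPM, weighs on the WT ratio.

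Plin1 had 1.41, 3.77, 0.75 and 0.87 TPM in Control WT rats and 0.42, 0.47 and 0.75 TPM in UVB WT rats. It had 2.66, 1.25, 2.03, 1.5 and 0.60 TPM in Control P1.hMR and 0.80, 0.54, 0.81, 0.46 and 0.72 TPM in UVB P1.hMR rats. The groups overlapped, or met at 0.75 TPM, in both genotypes. The log2 fold changes were -0.69 in WT (SE 0.29, adjusted p = 0.106) and -0.60 in P1.hMR rats (SE 0.24, adjusted p = 0.061), and only the average over genotypes made Plin1 a DEG (-0.64, SE 0.19, adjusted p = 0.0111). Without Control WT rat 2 the average was -0.48 (adjusted p = 0.0139), under the fold threshold. For P1.hMR rats alone Plin1 became a DEG without Control WT rat 2 (-0.60, adjusted p = 0.0154) or Control P1.hMR rat 5 (-0.76, adjusted p = 0.02).

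Adipocyte markers were set beside these results. Adipoq (adiponectin), which adipocytes secrete, was highest in the same rat as Plin1 and Cidec, Control WT rat 2, with 17.6 TPM against 3.04 to 9.01 TPM in the other Control WT rats. It was 1.85, 4.07 and 3.81 TPM in UVB WT rats, and its UVB differences did not pass (-1.02, adjusted p = 0.144 in WT; -0.32, adjusted p = 0.559 in P1.hMR). Of the 7 adipocyte markers tested, Ca3 (carbonic anhydrase 3) fell by 1.37 in WT and by 1.08 in P1.hMR rats (adjusted p = 0.0132 and 0.0091; 0.0568 in WT without UVB WT rat 1), and Retn (resistin) rose by 2.29 in P1.hMR rats (adjusted p = 0.0004). In WT rats the Retn difference was 0.67 (SE 0.49, adjusted p = 0.35), with 1.33 to 10.5 TPM in UVB WT rats. The interaction for Retn had an adjusted p of 0.704. Lep (leptin) and Ucp1, under 1 TPM in all rats and at 0 in some, were not tested. The summed adipocyte markers lay between 347 and 399.7 TPM in Control WT, 332 and 439 TPM in UVB WT, 363 and 452 TPM in Control P1.hMR and 369.7 and 416 TPM in UVB P1.hMR rats. Most of that sum was Thrsp, a regulator of lipid synthesis, with group means of 265 to 302 TPM, and Cfd (adipsin), with 61.9 to 62.9 TPM. Other markers add little to it. The group means in Control WT and UVB WT rats were 8.77 and 3.24 TPM for Adipoq, 14.9 and 4.77 TPM for Ca3, and 1.23 and 0.273 TPM for Pck1 (a gluconeogenic enzyme), of which Ca3 alone passed the adjusted p. In Control P1.hMR and UVB P1.hMR rats they were 7.20 and 5.00 TPM for Adipoq, 16.1 and 6.62 TPM for Ca3, and 0.808 and 0.484 TPM for Pck1. Again Ca3 alone passed. The part of adipocyte content in the fall of Plin1 and Cidec was not tested.

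**Figure D3:**
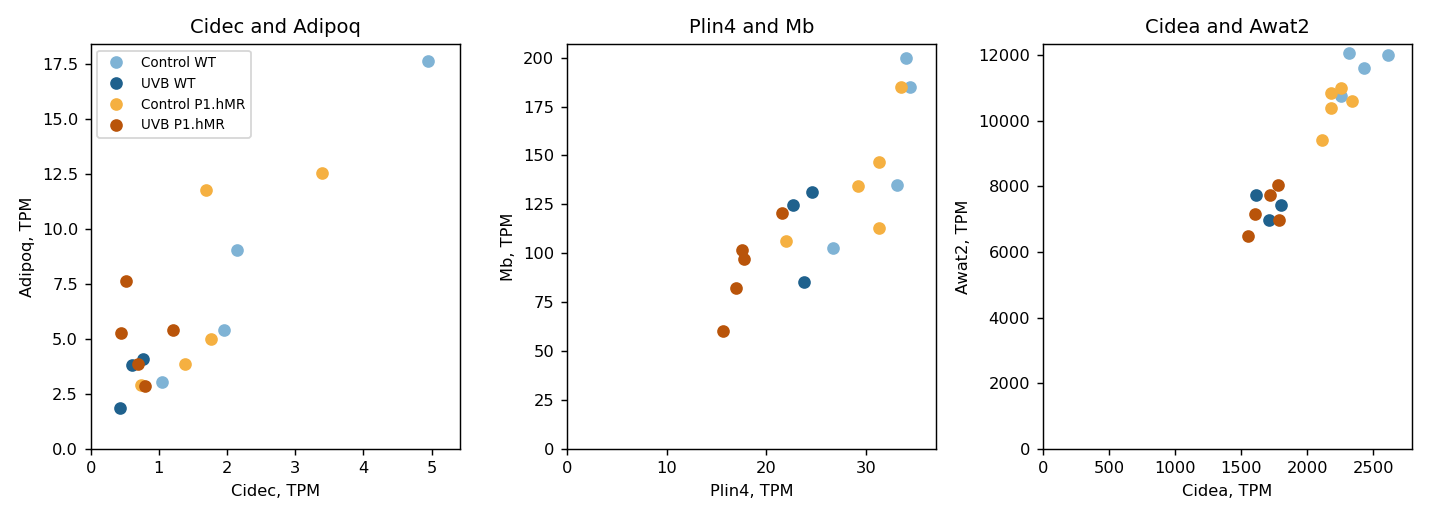
TPM of 3 members (horizontal axes, from 0) against TPM of a marker gene (vertical axes, from 0) in each of the 17 rats; points are rats coloured by group. Cidec is set against the adipocyte gene Adipoq, Plin4 against the muscle gene Mb and Cidea against the meibocyte gene Awat2. The Control WT rat with 4.95 TPM of Cidec has 17.6 TPM of Adipoq, and the UVB rats of both genotypes stand apart from all controls for Cidea and Awat2.

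Fabp5 rose in both genotypes. It had 3281, 3298, 2828 and 2685 TPM in Control WT rats against 4499, 4796 and 3944 TPM in UVB WT rats. In P1.hMR rats it had 3448, 2816, 2241, 2484 and 2623 TPM without UVB against 3897, 3905, 4133, 4178 and 4258 TPM with UVB. Every UVB rat exceeded every control rat. Fabp5 was a DEG in WT (0.55, SE 0.12, adjusted p = 0.00409) and in P1.hMR rats (0.60, SE 0.097, adjusted p = 0.000181), and its adjusted p stayed under 0.05 in all 27 fits of each. The WT value dropped below the fold threshold without Control WT rat 4 (0.49) or UVB WT rat 2 (0.48).

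With Fabp5 higher and Plin2 lower, Fabp5 per Plin2 went from 1.95 ± 0.125 in Control WT to 3.89 ± 0.522 in UVB WT rats, and from 1.76 ± 0.223 to 3.41 ± 0.371 in P1.hMR rats. No UVB rat was below 3.05 and no control rat above 2.11. The sum of the 9 members overlapped between UVB and control rats, at 0.866% ± 0.0596 and 0.895% ± 0.0451 of the TPM listed in Control WT and UVB WT rats, and 0.814% ± 0.0715 and 0.871% ± 0.00984 in Control P1.hMR and UVB P1.hMR rats. Keratinocytes also express Fabp5. Of 7 keratinocyte markers 1 was lower as a DEG in each genotype (Ivl, involucrin) and none was higher. With the adjusted p alone, Krt14, a keratin of basal cells, rose by 0.48 in WT and by 0.50 in P1.hMR rats (adjusted p = 0.0175 and 0.00204), and Krt1, a keratin of differentiating cells, rose by 0.45 in P1.hMR rats (adjusted p = 0.00869), with 0.38 in WT rats (adjusted p = 0.0754). In WT rats Krt14 did not pass without UVB WT rat 3 (adjusted p = 0.058) or with quantile normalization (adjusted p = 0.0943). It became a DEG in WT rats without Control WT rat 4 or UVB WT rat 2 (0.54 at the highest) and in P1.hMR rats without Control P1.hMR rat 2, 4 or 5 or UVB P1.hMR rat 1 or 2 (0.61 at the highest), and Krt1 did so in WT rats without UVB WT rat 2 (0.51) and in P1.hMR rats without Control P1.hMR rat 3 or UVB P1.hMR rat 4 (0.52). The sum of the markers ran from 12743 to 14963 TPM in UVB WT against 10272 to 12869.9 TPM in Control WT rats, and from 11354 to 15627 TPM in UVB P1.hMR against 10966 to 11882 TPM in Control P1.hMR rats, with none at 0. Their part in the rise of Fabp5 was not tested.

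Fabp4 did not pass the test in either genotype. It had 30.9, 43.7, 31.4 and 36.5 TPM in Control WT, 29.5, 32.4 and 37.8 TPM in UVB WT, 42.1, 40.1, 31.2, 34.7 and 26.4 TPM in Control P1.hMR and 63.7, 39.1, 39.8, 48.4 and 38.6 TPM in UVB P1.hMR rats. The UVB and control ranges overlapped in both genotypes. The log2 fold change was -0.09 for WT rats (SE 0.18, adjusted p = 0.756) and 0.38 for P1.hMR rats (SE 0.15, adjusted p = 0.0517, from 0.0302 to 0.144 over 27 fits), and the adjusted p was under 0.05 without Control WT rat 2, Control P1.hMR rat 1 or 2, or UVB P1.hMR rat 2, 3 or 5. Fabp4 and Fabp5 belong to a cluster of closely related genes, and how the authors' counting shared reads between related transcripts could shift either value. Endothelial cells and macrophages also carry Fabp4. Of 7 endothelial markers 2 were higher as DEGs in WT rats and 1 was in P1.hMR rats, and none was lower. With the adjusted p alone, 5 rose and 0 fell in WT rats. In P1.hMR rats 3 rose and 1 fell, with a lowest log2 fold change of -0.31. Vwf rose by 0.70 in WT and by 0.55 in P1.hMR rats (adjusted p = 0.00223 and 0.00109). Esam rose by 0.59 and 0.39 (adjusted p = 0.000851 and 0.00135). The summed endothelial markers were 65.1 to 81.1 TPM in Control WT and 91.6 to 102 TPM in UVB WT rats, and 76.6 to 85.9 TPM in Control P1.hMR and 81.0 to 97.8 TPM in UVB P1.hMR rats. Of 10 macrophage markers 5 were higher as DEGs in each genotype, with sums of 178 to 501 TPM in Control WT, 208 to 349 TPM in UVB WT, 178 to 439 TPM in Control P1.hMR and 290.3 to 417 TPM in UVB P1.hMR rats. The 501 TPM came from Control WT rat 4. Within a genotype no macrophage marker fell by the adjusted p, though some were lower. Their lowest log2 fold changes were -0.54 (WT) and -0.38 (P1.hMR). Averaged over genotypes, 5 macrophage markers rose and 1 fell by the adjusted p alone, with a lowest value of -0.46. The largest rises were those of Cd163 (2.55 in WT and 2.66 in P1.hMR rats), Mrc1 (1.33 and 1.33), C1qb (1.25 and 1.34) and C1qc (0.94 and 1.11). Cd163 had 0.44 to 1.86 TPM in the control rats and 5.54 to 17.4 TPM in the UVB rats. Their part in the Fabp4 values was not tested.

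Plin3, a perilipin that moves between cytosol and droplets, was not listed by its symbol. RefSeq gives AABR07066529.1 as an older name of Plin3, and a row with that name, chosen after its values were seen and not counted among the members, had 102 to 112 TPM in the 9 control rats and 80.4 to 94.3 TPM in the 8 UVB rats. It was lower without overlap, by 0.26 on the log2 scale in WT (SE 0.049, adjusted p = 0.00191) and by 0.36 in P1.hMR rats (SE 0.041, adjusted p = 7.79e-06).

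P1.hMR and WT rats were also compared under UVB, a comparison of levels that includes any difference between the genotypes without UVB. No member was a DEG (0.0229% of all genes, 3 genes) and none passed the adjusted p (0.0305% of all genes, 4 genes). Plin4 and Fabp4 had the smallest unadjusted p, as 2 of 9 members with an unadjusted p under 0.05 (10.3% of all genes) and 2 of 9 whose groups did not overlap (5.87% of all genes). Plin4 was lower in UVB P1.hMR (17.9 ± 2.21 TPM, SD, n = 5) than in UVB WT rats (23.7 ± 0.964 TPM, SD, n = 3), by 0.39 on the log2 scale (SE 0.12, limma adjusted p = 0.285). Fabp4 was higher in UVB P1.hMR (45.9 ± 10.7 TPM) than in UVB WT rats (33.2 ± 4.20 TPM), by 0.43 (SE 0.17, limma adjusted p = 0.392). These differences did not survive the adjustment. For Pparg the difference was -0.02 with a 95% interval of -0.18 to 0.13, for Plin2 0.08 (-0.06 to 0.22), for Cidea -0.02 (-0.15 to 0.11) and for Fabp5 -0.11 (-0.35 to 0.12). Intervals of Plin1, Plin5 and Cidec were wider, reaching from -0.51 to 0.78 at most.

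Without UVB, no member was a DEG between P1.hMR and WT rats (0.00763% of all genes, 1 gene), none had an unadjusted p under 0.05 (4.03% of all genes) and none had groups that did not overlap (1.03% of all genes). Cidea came closest, at -0.12 (95% interval -0.24 to 0.00, limma adjusted p = 0.998). The interaction, which tests whether the UVB response differs between genotypes, gave no DEG among all genes and no member with an unadjusted p under 0.05, where 6.92% of all genes had one (907 genes). Its largest member values were Fabp4 with 0.47 (SE 0.23, adjusted p = 0.726), Cidec with 0.39 (SE 0.39, adjusted p = 0.88) and Plin4 with -0.27 (SE 0.16, adjusted p = 0.788).

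Genes around the members in the PPARG pathway were counted from lists. Among 18 tested receptors, partners and coregulators of PPARG, 1 was higher and 1 lower as a DEG in WT rats, and 1 was higher and 2 lower in P1.hMR rats. Cebpd, a transcription factor of early adipogenesis, rose by 0.86 in WT and by 0.82 in P1.hMR rats (adjusted p = 0.0439 and 0.0123). Ppargc1a, a coactivator of PPARG and of mitochondrial genes, fell by 0.74 and 0.93 (adjusted p = 0.0235 and 0.000769). Rxrg, a retinoid X receptor at 1.29 to 3.67 TPM, fell by 0.44 and 0.56 (adjusted p = 0.0458 and 0.00225). The other retinoid X receptors had more RNA and did not pass in either genotype. Rxra, with group means of 136 to 151 TPM, differed by -0.02 and -0.08 (adjusted p = 0.837 and 0.302). Rxrb, with group means of 15.3 to 16.3 TPM, differed by 0.06 and -0.06 (adjusted p = 0.495 and 0.341). The median of the list was -0.02 for WT rats and -0.11 for P1.hMR rats. In WT rats the Cebpd call was lost without Control WT rat 1, 3 or 4, Control P1.hMR rat 4, UVB WT rat 1 or 2 or UVB P1.hMR rat 5 (adjusted p up to 0.176), and the Ppargc1a call without Control WT rat 2 or UVB WT rat 2 or 3 (up to 0.134). Rxrg passed the fold threshold in WT rats without Control WT rat 4 (-0.53) or UVB WT rat 1 (-0.63), and fell under it in P1.hMR rats without Control P1.hMR rat 4 (-0.48).

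Among 17 tested targets of PPARG in fat cells, 2 were higher and none lower as DEGs in each genotype. Lpl, the lipase that frees fatty acids from circulating lipoproteins, had 12.9 to 17.7 TPM in the 9 control rats and 29.8 to 47.4 TPM in the 8 UVB rats, and rose by 1.28 in WT (SE 0.14, adjusted p = 3.86e-05) and by 1.43 in P1.hMR rats (SE 0.12, adjusted p = 5.4e-07). Dgat1, which makes triglyceride, rose by 0.60 and 0.75 (adjusted p = 0.000214 and 1.48e-06). The list as a whole was centred near 0, with medians of 0.10 for WT rats and -0.07 for P1.hMR rats, and with the adjusted p alone 3 rose and 2 fell in each genotype.

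Of 8 tested lipases and their regulators, 1 was higher and 1 lower as a DEG in WT rats, and 1 was lower in P1.hMR rats. G0s2, an inhibitor of the main triglyceride lipase, rose by 0.52 in WT rats (adjusted p = 0.0199), with 0.27 in P1.hMR rats (adjusted p = 0.0864). Ces1d, a carboxylesterase, fell by 0.67 in WT rats (adjusted p = 0.0213), with -0.36 in P1.hMR rats (adjusted p = 0.0853). The G0s2 call was lost without Control WT rat 4 or UVB WT rat 1 or 2 (adjusted p up to 0.0818), and that of Ces1d without Control WT rat 2 or UVB WT rat 1 (up to 0.0978). Pnpla3, a droplet-bound acylglycerol hydrolase and transacylase, fell by 1.00 in P1.hMR rats (SE 0.15, adjusted p = 0.000105), with -0.14 in WT rats (SE 0.18, adjusted p = 0.624), and the interaction for Pnpla3 had an adjusted p of 0.704. None of 15 tested droplet assembly genes, such as the seipin gene Bscl2, was a DEG in either genotype, and with the adjusted p alone 1 rose and 1 fell in WT rats and 5 fell in P1.hMR rats. Of the other fatty acid binding proteins only Fabp3 and Fabp12 passed the filter, and neither was a DEG.

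**Figure D4:**
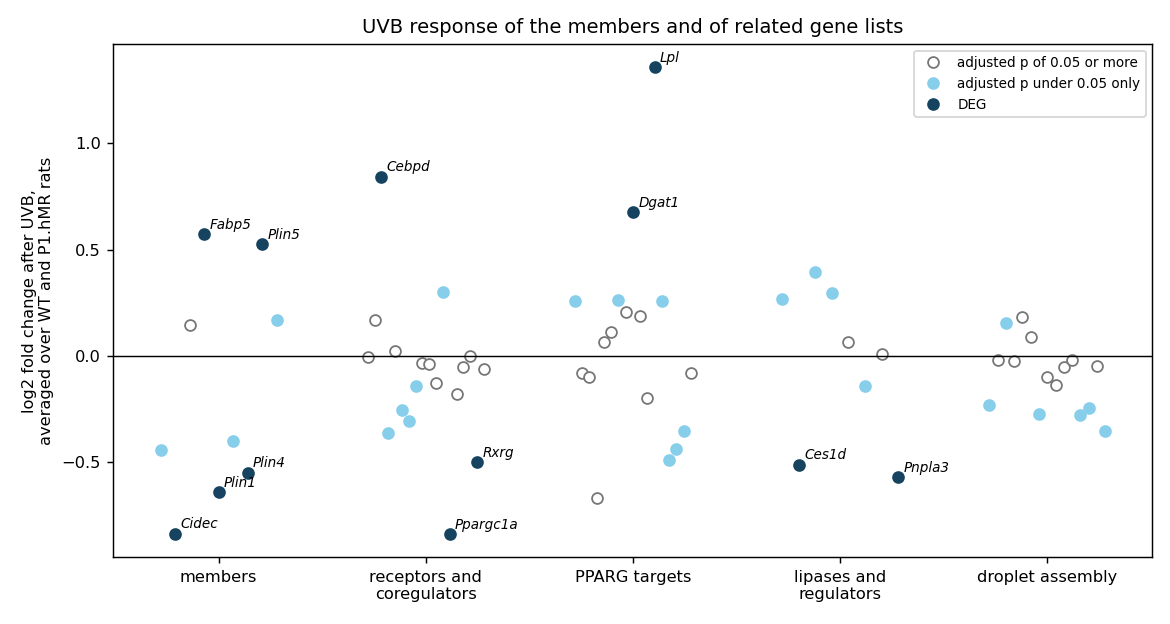
Log2 fold change after UVB averaged over genotypes (vertical axis) for each tested gene of the members and of 4 related lists (horizontal axis); dark points are DEGs and are named, light blue points passed the adjusted p only, open points did not pass. Lpl and Cebpd are the highest and Cidec and Ppargc1a the lowest of the DEGs shown.

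Genes whose levels varied with a member from rat to rat were found by subtracting each group's mean of log2(TPM + 1) and correlating over the 17 rats, among 9934 genes with a mean of at least 5 TPM. The 5 genes nearest Pparg were Kiaa0408L, Acsm4, Atp23, Pcyt1a and Adgrl1, with Pearson's r from 0.93 to 0.84 and Spearman's rho from 0.91 to 0.81. Acsm4 belongs to the medium-chain acyl-CoA synthetases, and Pcyt1a makes an intermediate of phosphatidylcholine, the main phospholipid of the droplet surface. The 5 nearest Plin2 were Ppp4r4, Nrdc, Ppp2r3c, Crispld2 and Ppp2ca, with r from 0.83 to 0.76. Of these, Ppp2ca is the catalytic subunit and Ppp2r3c a regulatory subunit of the phosphatase PP2A. The 5 nearest Fabp5 were Chmp1a, Metrnl, ST7, Lrp3 and Copz1, with r from 0.88 to 0.80. Without the 2 rats farthest from the median of the member, r was at least 0.79 for the genes of Pparg, 0.60 for those of Plin2 and 0.73 for those of Fabp5. These are the highest of 9934 values for each member, which rats were dissected or prepared together is not known, and no p is given. No other member was among the nearest genes of these 3.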

How the data were processed

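The deposited table holds TPM, written with a decimal comma, for 17251 genes in 17 rats, with 1 column for each rat and 0 columns left unmapped. Per the labels and the study's methods the values are gene-level TPM on the rn7 build. The study's methods name FastQC, STAR and RSEM, while the submitters' processing notes name FastQC, Trimmomatic, DRAGEN and Picard, and it is not known which made the deposited values. TPM keeps no counts, so no counting error was computed, and the rats are the replicates. The sums of the columns ranged from 804378 to 840817 TPM.

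The filter kept genes reaching 1 TPM in 3 or more rats, tested as log2(TPM + 1) with limma 3.58.1 in R 4.3.3, in 1 model with 4 group means and a variance trend, two-sided, with Benjamini-Hochberg adjustment. The thresholds of adjusted p under 0.05 and 0.5 on the log2 scale follow the study. The study's count-based test was not used since counts were not given in the sources used here. The model was also run on simulated data with known changes. These were placed only in genes with more RNA than Plin1, Plin5 and Cidec, so the run does not bear on those members. Tables and figures used Python 3.11.15 with pandas 2.3.3, numpy 2.4.6 and matplotlib 3.10.9. The members and lists were chosen with earlier results of these data known. In the lists, up to 4 genes called in any comparison were named by the size of their averaged change, and Adipoq, Cfd, Pck1, Thrsp, Krt1, Krt14, Bscl2, Fabp3, Fabp12, Lep, Ucp1 and AABR07066529.1 were named after their values were seen. Symbols were matched to RefSeq (GRCr8) for older names and promoter windows only. Alternatives were a pseudocount of 0.1, no filter, a mean of at least 5 TPM, fits restricted to the groups compared, quantile scaling, median-of-ratios scaling, no variance trend, sample weights, a replicate block, other fold thresholds and each rat left out.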

Additional observations from a re-analysis of the deposited data

Results flagged for a closer look

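Among 27 sets of 4 or 5 rats checked, 1 held a rat that stood apart, about what chance gives at 1 in 20: Plin4 in Control WT rat 4, at 26.72 TPM against 33.08 to 34.39 TPM in the other 3. Its gap divided by the range of the group was 0.8292, just past Dixon's 95% critical value.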

How the results depend on the processing

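The DEGs among the members numbered 2 after UVB in WT, 2 in P1.hMR rats and 5 averaged over genotypes. In WT rats they were 1 with a mean of at least 5 TPM, which leaves Cidec untested, 1 with only the groups compared in the fit, 6 with no fold change threshold, 1 with a log2 threshold of 1, and 1 to 3 with each rat left out. In P1.hMR rats they were 4 with a pseudocount of 0.1, 4 with only the groups compared, 4 with no fold change threshold, 0 with a log2 threshold of 1, and 2 to 4 on leaving out each rat. Averaged, they were 2 with a mean of at least 5 TPM, 8 with no threshold, 0 with a log2 threshold of 1, and 3 to 5 with each rat left out. Members past the adjusted p alone numbered 3 to 6 in WT and 4 to 7 in P1.hMR rats when leaving out each rat, and 5 averaged with a mean of at least 5 TPM. Apart from the filters and thresholds, whose construction sets the count, the cause was not tested.

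Differences near 0 turned sign. For genotype under UVB, Cidea was 0.0145 with quantile normalization, 0.0036 with median-of-ratios scaling and 0.0259 with the replicate block. For genotype without UVB, Plin1 was -0.0015 with quantile normalization and -0.0171 with sample weights, Plin2 0.0271 with quantile normalization and 0.0284 with the block, Plin5 -0.0614 with a pseudocount of 0.1, -0.0305 with quantile normalization and -0.13 with the block, and Fabp4 0.0386 with the block. With each rat left out, UVB in WT ran from -0.18 to 0.0093 for Fabp4, -0.28 to 0.0135 for Pnpla3 and -0.0456 to 1.11 for Retn; genotype under UVB from -0.10 to 0.0512 for Pparg and -0.0611 to 0.0184 for Cidea; genotype without UVB from -0.15 to 0.34 for Plin1, -0.0383 to 0.0309 for Plin2, -0.17 to 0.32 for Plin5, -0.51 to 0.0023 for Cidec and -0.11 to 0.0651 for Fabp4; and the interaction from -0.23 to 0.26 for Plin1, -0.17 to 0.32 for Plin5 and -0.0295 to 0.14 for Fabp5.

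Rats with the same replicate number in different groups are not known to share more than the number. Over 22 such pairs the correlation of their deviations ran from -0.19 to 0.24, with a median of -0.005. Over 85 pairs with different numbers it ran from -0.26 to 0.18, with a median of 0.008. With the replicate block, Cidea became a DEG in WT rats (-0.52) and Cidec in P1.hMR rats (-0.64, adjusted p = 0.0372). The depth behind each value is unknown, and at 3 to 5 rats a group the intervals of Plin1, Plin5 and Cidec span more than 1 on the log2 scale.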
